A study of Mus musculus with 12 samples.

Results

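The 77 genes described here have symbols beginning with Mrpl or Mrps, the names given to mitochondrial ribosomal proteins. Of them 48 are named for the large subunit and 29 for the small subunit. They were taken from the non-control probes of the array by gene name, and they are 77 of 34607 gene names on it. RNA was measured in the livers of 12 mice, 4 in each of 3 groups, with 1 one-colour Agilent array per mouse. The groups were wild type (129/Sv x C57BL/6), E2f1 knockout (E2f1-/-) and E2f2 knockout (E2f2-/-) mice, which lack transcription factors of the E2F family known for their control of cell cycle genes. By the treatment protocol every group received the liver carcinogen diethylnitrosamine once, at 25 mg/kg on postnatal day 14, then a diet with 60% of its calories from fat for 32 weeks, and was killed at 9 months of age after 4 hours without food. For the E2f1 knockout livers the source field names a vehicle and chow diet in place of this, against their titles, descriptions, characteristics and protocol, so a difference of treatment cannot be told apart from genotype in any comparison with that group. The labels give neither sex, nor the knockouts' background strain, nor which part of either gene was deleted.

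Mitochondria keep their own ribosome, which translates the few messages encoded in mitochondrial DNA. All of these messages encode subunits of the oxidative phosphorylation complexes, and the ribosomal RNAs come from mitochondrial DNA too. The ribosomal proteins are encoded in the nucleus, made in the cytosol and imported, so building the ribosome needs both genomes. Liver cells hold many mitochondria, whose respiratory chain oxidises the products of fatty acid breakdown.

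All 77 genes were well above background on all 12 arrays, and all were tested among 20572 genes. They were covered by 109 of 55681 probes, and each gene was represented by its brightest tested probe. Levels are log2 signal minus the 75th percentile of the array, so a level of 0 equals that percentile, which lay between 107.7 and 211.7 intensity units. Between 44.8% and 54.5% of probes were well above background per array. Hepatocyte markers were high on every array, with a mean level over 9 tested markers between 8.59 and 9.15. The E2f1 probe fell by 0.83 ± 0.19 (SE) on the log2 scale in E2f1 knockout livers (limma adjusted p = 0.0106). The E2f2 probe differed by -0.29 ± 0.21 in the livers labelled E2f2 knockout (adjusted p = 0.361), and it fell by 1.51 in E2f1 knockout livers (adjusted p = 0.00136). The E2f2 probe thus does not bear out the E2f2 label, and whether it lies in the deleted part is not known. That group is therefore called the livers labelled E2f2 knockout. The name E2f1 knockout comes from the labels too. In that group the E2f2 probe fell more than the E2f1 probe, and the cause was not tested. The mice are separate animals per the series' design text.

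In E2f1 knockout livers, 34 of the 77 genes were higher than in wild type and none was lower (limma, Benjamini-Hochberg adjusted p under 0.05 over all tested genes). The share over all tested genes was 12.8% higher and 7.48% lower. The 34 rises ranged from 0.40 for Mrps14 to 0.92 for Mrps5 on the log2 scale, which is 1.32-fold to 1.89-fold. The median difference of the 77 genes was 0.45, beside 0.12 over all tested genes, and 76 of the 77 differences were above 0. Over all tested genes 61.9% of differences were above 0. In 46 of the genes every E2f1 knockout array lay above every wild type array, which was so for 14.0% of all tested genes. Among the 16687 genes above background on all 12 arrays, as the members are, 13.5% were higher, with a median of 0.12.

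The medians of both subunits moved alike. The large subunit had 23 of 48 genes higher, with a median difference of 0.45, and the small subunit 11 of 29, with a median of 0.47. Every E2f1 knockout array lay above every wild type array in 32 of the 48 large and 14 of the 29 small subunit genes. This was so for 14.0% of all tested genes, and whether the subunits differ in it was not tested. On single arrays the median change of the large subunit, each gene taken against its wild type mean, was 0.35, 0.41, 0.66 and 0.35 in the 4 E2f1 knockout livers, and -0.07 to 0.12 in wild type. The small subunit's medians were 0.32, 0.40, 0.63 and 0.33, against -0.07 to 0.13 in wild type. All 4 E2f1 knockout arrays thus lay above all 4 wild type arrays for either subunit, and replicate 3 was the highest. The large subunit's median minus the small subunit's was between -0.01 and 0.06 on all 12 arrays, so no array held a clear excess of either. Moving Mrps30 and Mrps18a, which sit in the large subunit of the assembled particle, to that side and leaving out Mrps36 gave 23 of 50 and 11 of 26.

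**Figure D1:**
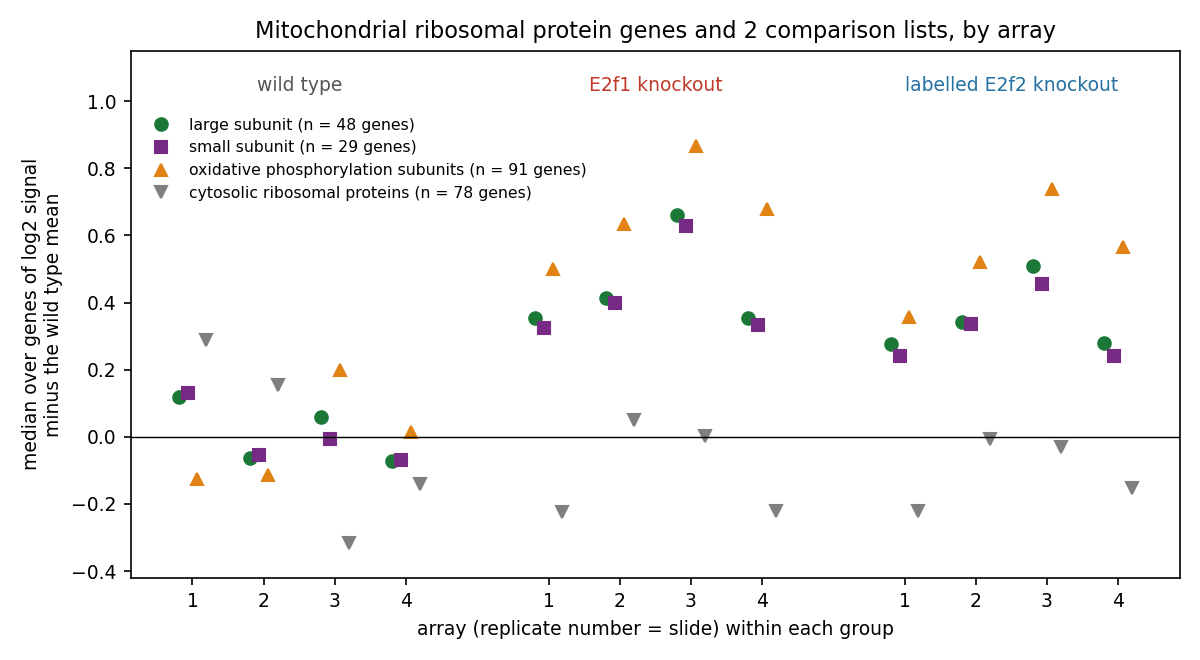
Median over genes of the log2 signal minus each gene's wild type mean (y axis) on each of the 12 arrays (x axis, by group and replicate number, which is also the slide), for the large subunit, the small subunit, oxidative phosphorylation genes and cytosolic ribosomal proteins. The large and small subunit points lie together on every array. They are between 0.24 and 0.66 in E2f1 knockout and labelled E2f2 knockout livers and between -0.07 and 0.13 in wild type. The cytosolic ribosomal proteins lie between -0.23 and 0.05 in E2f1 knockout and labelled E2f2 knockout livers. In wild type they lie between -0.32 and 0.29.

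The 4 slides each carried 1 array of each group, at the same position for all mice of a group, so group and position on the slide cannot be told apart. Within the slides the median difference of the 77 genes between E2f1 knockout and wild type was 0.22, 0.46, 0.58 and 0.45. It was above 0 on each of the 4 slides, and smallest on the first. With the slide as a replicate block, 50 of the 77 genes were higher, beside 17.6% of all tested genes. The count of 34 depended strongly on scaling and on single arrays. It was 3 with arrays centred on their medians, 15 after quantile normalization and 15 with the deposited series matrix values, none of them lower in any of these. The share of all tested genes that were higher was 7.43%, 9.35% and 9.21% in these settings, so the members' share with median centring, 3.9%, was below that of all genes, and their 19.5% in the other settings above it. The count of members was 14 without wild type replicate 2, 16 without wild type replicate 4, and 18, 13 and 19 without E2f1 knockout replicates 2, 3 and 4. Calls over all genes, in either direction, then numbered 2516, 3549, 3284, 2550 and 2806 in the same order, beside 4173 in the main fit. The direction held better than the calls: 73 of 77 differences were above 0 with median centring and 68 with quantile normalization. Their medians were 0.39 and 0.25, beside 0.07 and 0.03 over all tested genes. Of all genes called, 63.1% were higher in the main scaling, 50.9% with median centring and 50.4% with quantile normalization.

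Mrps5, a small subunit protein related to bacterial S5 at the entry of the mRNA channel, showed the largest rise in E2f1 knockout livers (probe on chromosome 2, mm9 positions 127426599 to 127427149). Its level was -0.15, -0.39, -0.32 and -0.39 in wild type, 0.54, 0.47, 0.80 and 0.62 in E2f1 knockout, and 0.22, 0.11, 0.33 and -0.11 in livers labelled E2f2 knockout. The 3 groups did not overlap, with the E2f1 knockout highest. The difference from wild type was 0.92 ± 0.14 (SE, n = 4; limma adjusted p = 0.00187) in E2f1 knockout and 0.45 ± 0.14 (limma adjusted p = 0.0411) in livers labelled E2f2 knockout. The E2f1 difference was called under all 25 alternative settings, with log2 values from 0.67 to 0.98. The E2f2 difference was called under 13 of 25. It was lost with median centring, without wild type replicate 2, 3 or 4, and without E2f1 knockout replicate 1 or 4. It was lost also without replicate 1, 2 or 3 of the labelled E2f2 knockout, and under further settings not listed here.

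Mrps35, a small subunit protein without a bacterial counterpart, was the other gene called in E2f1 knockout under all 25 settings (chromosome 6, mm9 positions 147009999 to 147019119). It measured 1.27, 1.09, 1.24 and 1.12 in wild type, 1.95, 1.87, 2.16 and 1.82 in E2f1 knockout, and 1.73, 1.82, 2.00 and 1.67 in livers labelled E2f2 knockout. The arrays of both other groups lay above all 4 wild type arrays. The differences were 0.77 ± 0.13 (adjusted p = 0.00338) and 0.62 ± 0.13 (adjusted p = 0.00804), both from limma, and the second was lost with median centring.

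Mrpl12, the large subunit's stalk protein, which contacts translation factors and has been described as a partner of the mitochondrial RNA polymerase, rose in E2f1 knockout (chromosome 11, mm9 positions 120349740 to 120349799). Its wild type values were 5.01, 4.69, 5.02 and 4.77, its E2f1 knockout values 5.40, 5.56, 5.88 and 5.49, and its values in livers labelled E2f2 knockout 5.26, 5.34, 5.72 and 5.05. E2f1 knockout livers and livers labelled E2f2 knockout all lay above wild type. The difference of 0.71 ± 0.17 passed in E2f1 knockout (limma adjusted p = 0.0147), and that of 0.47 ± 0.17 in livers labelled E2f2 knockout did not (limma adjusted p = 0.0725). With median centring the first did not pass either.

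The other largest rises in E2f1 knockout were those of Mrpl37, Mrpl55 and Mrps27, which belong to the proteins that mitochondrial ribosomes have gained over bacterial ones. Mrpl55 (chromosome 11, mm9 positions 59019327 to 59019386) rose by 0.68 ± 0.14 (limma adjusted p = 0.00792), from a mean of 4.11 ± 0.16 (SD, n = 4) to 4.80 ± 0.16, and lost its call with median centring alone. Mrpl37 rose by 0.74 ± 0.23 (limma adjusted p = 0.0379), with values from -0.01 to 0.84 in E2f1 knockout and from -0.74 to -0.02 in wild type, so that its groups met but did not overlap. Mrps27, a protein with the helical repeats of RNA-binding pentatricopeptide proteins, rose by 0.68 ± 0.21 (limma adjusted p = 0.0425), and replicate 3 at 1.20 was far above the others, which lay between 0.22 and 0.67. The calls of Mrpl37 and Mrps27 were among the less stable, holding under 15 and 11 of 25 settings. Neither held without wild type replicate 2, 3 or 4 or without E2f1 knockout replicate 3 or 4. The Mrps27 call was lost also with median centring, without wild type replicate 1 and without livers labelled E2f2 knockout, replicate 1, 2 or 4. The Mrpl37 call was lost also without E2f1 knockout replicate 2 and without livers labelled E2f2 knockout, replicate 2. Both calls were lost under further settings not listed here, and the highest limma adjusted p was 0.123 for either gene.

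In livers labelled E2f2 knockout, 20 of the 77 genes were higher than in wild type and none was lower, beside 12.5% of all tested genes higher and 7.84% lower. The 20 rises ranged from 0.43 for Mrps18c to 0.84 for Mrps7 on the log2 scale. The median difference of the 77 genes was 0.35, beside 0.15 over all tested genes, and 72 of 77 differences were above 0. Over all tested genes 63.3% of differences were above 0. In 40 genes the 4 arrays labelled E2f2 knockout lay above the 4 wild type arrays, which was so for 15.1% of all tested genes. Of the 20 genes called, 18 were among these 40, and Mrps18b and Mrps34 were not. The large subunit had 12 of 48 genes higher (median 0.37) and the small subunit 8 of 29 (median 0.31). The 40 genes without overlap were 28 of the large and 12 of the small subunit. Per array the large subunit's medians were 0.28, 0.34, 0.51 and 0.28, and the small subunit's 0.24, 0.34, 0.46 and 0.24, again highest in replicate 3 and all above wild type.

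Within the slides the median difference of the 77 genes was 0.16, 0.36, 0.52 and 0.34. With the slide as a replicate block 34 of them were higher, beside 19.5% of all tested genes. The count of 20 was 3 with median centring. It was 8 with quantile normalization and 8 with the series matrix values, of which 7 were higher and 1, Mrps36, was lower at -0.40 after quantile normalization (limma adjusted p = 0.0442). Of all tested genes 6.78%, 9.19% and 9.15% were higher in these settings, beside 3.9%, 9.09% and 9.09% of the members, so the members' share of higher calls was then not above that of all genes. Without wild type replicate 1, 2 or 4 the count was 11, 7 or 11. Without replicate 2, 3 or 4 of the labelled E2f2 knockout it was 7, 6 or 12. Calls over all genes, in either direction, then numbered 3032, 2561, 3548, 2920, 2803 and 2923 in the same order, beside 4181 in the main fit. With median centring 70 of 77 differences were above 0, and with quantile normalization 65. Their medians were 0.29 and 0.20, beside 0.10 and 0.07 over all tested genes. The share of higher genes among all those called was 61.4% in the main scaling, 47.6% with median centring and 49.5% with quantile normalization.

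Mrps7, related to bacterial S7 in the head of the small subunit, and Mrpl14, related to bacterial L14 at the face that meets the small subunit, showed the largest rises in livers labelled E2f2 knockout. The Mrps7 probe (chromosome 11, mm9 positions 115468609 to 115468668) measured 4.82, 4.66, 5.06 and 4.97 in wild type, 5.34, 5.52, 5.76 and 5.47 in E2f1 knockout, and 5.51, 5.87, 5.70 and 5.80 in livers labelled E2f2 knockout. Neither of the other groups overlapped wild type. The differences were 0.84 ± 0.15 (limma adjusted p = 0.0032) in livers labelled E2f2 knockout and 0.64 ± 0.15 (limma adjusted p = 0.0113) in E2f1 knockout, the latter lost with median centring and quantile normalization. Mrpl14 (chromosome 17, mm9 positions 45835317 to 45835376) measured 5.78, 5.75, 6.62 and 6.27 in wild type, 6.62, 6.80, 6.90 and 6.73 in E2f1 knockout, and 6.70, 6.87, 7.22 and 6.98 in livers labelled E2f2 knockout. Its wild type livers were spread widely, the highest of them next to the lowest E2f1 knockout liver. The Mrpl14 differences were 0.84 ± 0.20 (adjusted p = 0.0134) and 0.66 ± 0.20 (adjusted p = 0.037), the latter lost with median centring and quantile normalization, without wild type replicate 1 or 2, without E2f1 knockout replicate 2, 3 or 4, and without replicate 2 of the labelled E2f2 knockout.

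Mrpl55 was the third gene, with Mrps7 and Mrpl14, that was called in livers labelled E2f2 knockout under all 25 settings. It rose there by 0.77 ± 0.14 (limma adjusted p = 0.00477), to 4.66, 4.94, 5.07 and 4.85 from 4.12, 3.98, 4.33 and 4.02. Mrps31, a small subunit protein specific to mitochondria, rose by 0.68 ± 0.15 (limma adjusted p = 0.0101) and by 0.65 ± 0.15 in E2f1 knockout (limma adjusted p = 0.0126). Mrpl2, related to the bacterial protein beside the peptidyl transferase centre, rose by 0.65 ± 0.18 (limma adjusted p = 0.0255). Mrpl49, another protein specific to mitochondria, rose by 0.75 ± 0.21 (limma adjusted p = 0.0284). For Mrpl2 and Mrpl49 the differences in E2f1 knockout were 0.51 (limma adjusted p = 0.063) and 0.50 (limma adjusted p = 0.126). Mrps31 lost both calls with median centring. Mrpl2 and Mrpl49 lost theirs with median centring, quantile normalization and normexp correction, without wild type replicate 1 or 2 and without replicate 3 or 4 of the labelled E2f2 knockout, and Mrpl2 also without its replicate 2.

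**Figure D2:**
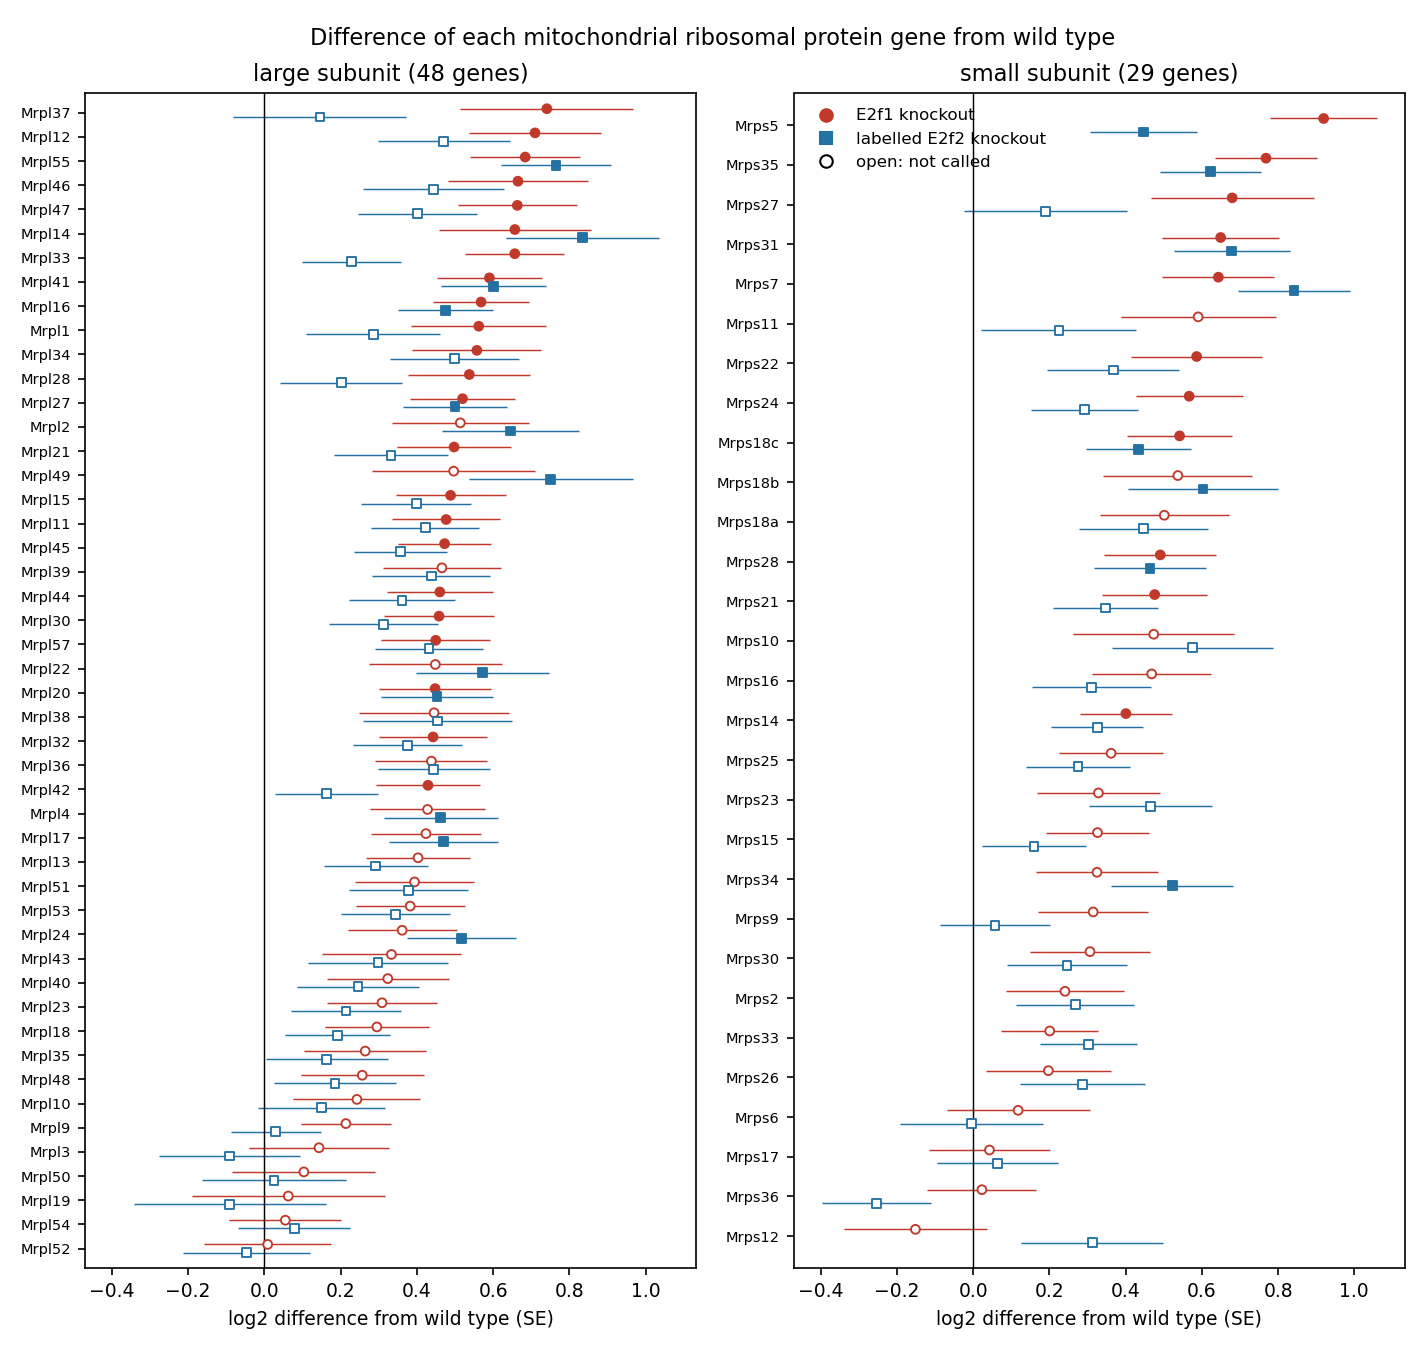
Log2 difference from wild type with its standard error (x axis) for each of the 77 genes (y axis, ordered by the E2f1 knockout difference), large subunit left and small subunit right. Circles are E2f1 knockout, squares livers labelled E2f2 knockout, and filled symbols are genes called. Above 0 lie 76 of 77 circles and 72 of 77 squares, beside 61.9% and 63.3% of all tested genes.

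Between E2f1 knockout livers and livers labelled E2f2 knockout no gene of the mitochondrial ribosome was called, beside 0.846% of all tested genes higher and 0.749% lower in livers labelled E2f2 knockout than in E2f1 knockout. The count was 0 with limma under every alternative too. At an unadjusted p under 0.05 there were 5 of 77 genes, or 6.5%, beside 11.3% of all tested genes, and the smallest adjusted p was 0.155, for Mrps5. The median difference was -0.07, beside 0.01 over all tested genes, and 53 of 77 differences were below 0. Over all tested genes 51.2% of differences were above 0. Within the slides the median was -0.06, -0.04, -0.11 and -0.02. In 2 genes, Mrps5 and Mrpl33, every array labelled E2f2 knockout lay below every E2f1 knockout array, which was so for 4.18% of all tested genes. Mrpl33, a small protein related to bacterial L33, measured 6.58, 6.51, 6.59 and 6.41 in E2f1 knockout and 6.08, 6.15, 6.20 and 5.95 in livers labelled E2f2 knockout. Its difference was -0.43 ± 0.13 (limma adjusted p = 0.165). Against wild type it rose in E2f1 knockout by 0.66 ± 0.13 (limma adjusted p = 0.00594; lost with quantile normalization), with a difference of 0.23 in livers labelled E2f2 knockout (limma adjusted p = 0.233).

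Of the 77 genes, 12 were called in both comparisons with wild type, 22 in E2f1 knockout alone, 8 in livers labelled E2f2 knockout alone and 35 in neither. Both comparisons use the same 4 wild type livers, and no gene's difference between E2f1 knockout and labelled E2f2 knockout livers passed, so these counts do not show that the groups differ. The 12 genes were Mrpl14, Mrpl16, Mrpl20, Mrpl27, Mrpl41, Mrpl55, Mrps5, Mrps7, Mrps18c, Mrps28, Mrps31 and Mrps35. Mrpl41, a large subunit protein also studied as a partner of the apoptosis regulator BCL2, measured 3.56, 3.65, 3.89 and 3.68 in wild type, 4.32, 4.16, 4.53 and 4.14 in E2f1 knockout and 4.26, 4.34, 4.42 and 4.16 in livers labelled E2f2 knockout. Its rises of 0.59 ± 0.14 (limma adjusted p = 0.0125) and 0.60 ± 0.14 (limma adjusted p = 0.0112) were nearly equal. Both Mrpl41 calls were lost with median centring, and the first also with the mean of its probes.

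Further members with particular roles were Mrpl44, Mrps34, Mrps30 and Mrps18a. Mrpl44, a large subunit protein with the fold of a double-strand RNA nuclease, rose by 0.46 ± 0.14 in E2f1 knockout (limma adjusted p = 0.0359) and differed by 0.36 in livers labelled E2f2 knockout (limma adjusted p = 0.0854). Mrps34, which the small subunit's RNA needs for its stability, rose by 0.52 ± 0.16 in livers labelled E2f2 knockout (limma adjusted p = 0.0376) and differed by 0.33 in E2f1 knockout (limma adjusted p = 0.178). Mrps30 and Mrps18a, which carry small subunit names but sit in the large subunit, did not pass in either comparison. Mrps18a differed by 0.50 (limma adjusted p = 0.0549) and 0.45 (limma adjusted p = 0.0803), and Mrps30 by 0.31 (limma adjusted p = 0.196) and 0.25 (limma adjusted p = 0.29). The Mrpl44 and Mrps34 calls were both lost with median centring, without wild type replicate 2 or 4, without E2f1 knockout replicate 4 and without replicate 2 of the labelled E2f2 knockout. That of Mrpl44 was lost also without E2f1 knockout replicate 2 or 3, and that of Mrps34 without wild type replicate 1 or replicate 3 of the labelled E2f2 knockout.

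Several genes stood out by their small differences. Mrps12, related to bacterial S12 of the decoding centre, was the only member with a negative difference in E2f1 knockout, at -0.15 ± 0.19 (limma adjusted p = 0.633), and its difference in livers labelled E2f2 knockout was 0.31 (limma adjusted p = 0.257). It measured 4.51, 4.45, 4.28 and 4.22 in wild type, 3.87, 4.22, 4.46 and 4.29 in E2f1 knockout, and 4.81, 4.76, 4.94 and 4.19 in livers labelled E2f2 knockout. Its 3 groups overlapped, with replicate 4 of the labelled E2f2 knockout below all wild type livers. Mrps36, which is also known as a component of the 2-oxoglutarate dehydrogenase complex rather than of the ribosome, differed by 0.02 (limma adjusted p = 0.936) and -0.25 (limma adjusted p = 0.23). Its wild type livers lay between 2.99 and 3.08, inside the E2f1 knockout range of 2.86 to 3.25. Mrpl52, Mrpl54 and Mrps17 differed by 0.01, 0.06 and 0.04 in E2f1 knockout, and all 3 turned negative after quantile normalization, as did Mrps36. Mrpl19 and Mrpl35, the members with the dimmest probes, differed by 0.06 and 0.26 in E2f1 knockout and did not pass (limma adjusted p = 0.9 and 0.278). Mrpl19 had the widest spread in wild type, from -1.10 to 0.00.

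**Figure D3:**
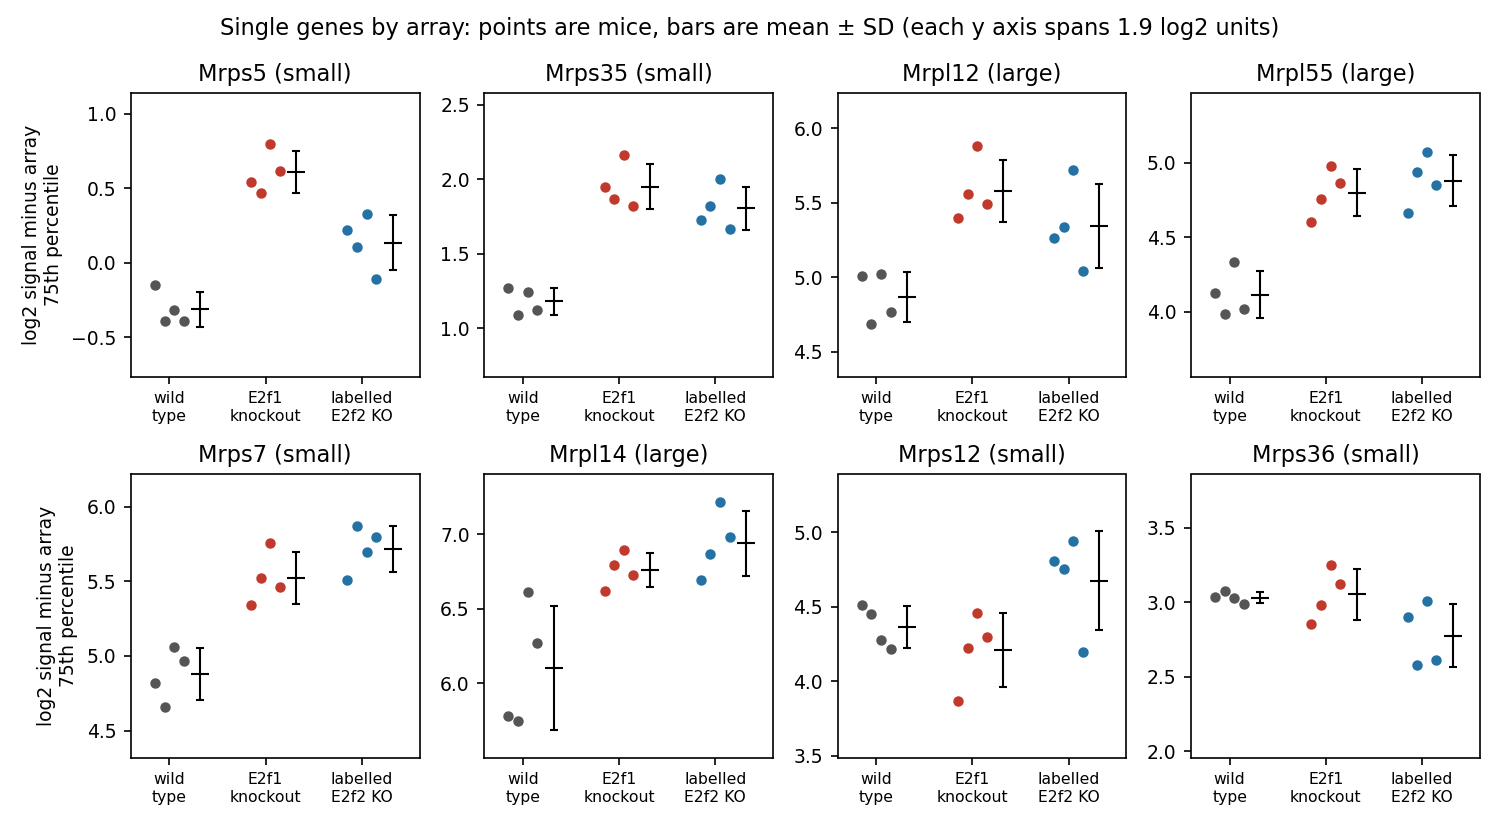
Log2 signal minus the array's 75th percentile (y axis) in each mouse (points, by group on the x axis) for 8 of the 77 genes, with the mean and SD of the 4 mice beside them. Mrps5, Mrps35, Mrpl12, Mrpl55, Mrps7 and Mrpl14 lie higher in E2f1 knockout and labelled E2f2 knockout livers, while Mrps12 and Mrps36 overlap wild type.

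Where a gene had several probes, these mostly pointed the same way. Of 26 members with more than 1 tested probe, the sign of the difference from wild type depended on the probe for 3 in E2f1 knockout (Mrpl9, Mrps25 and Mrps36) and 2 in livers labelled E2f2 knockout (Mrpl50 and Mrps23). None of these 5 genes was called. The 2 Mrpl9 probes differed by 0.21 and -0.17 in E2f1 knockout, and those of Mrps23 by 0.46 and -0.01 in livers labelled E2f2 knockout. Between E2f1 knockout and labelled E2f2 knockout livers the sign depended on the probe for 13 of the 26, so directions of single genes there rest on the choice of probe.

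Proteins of the mitochondrial ribosome that carry other names were examined beside the 77 genes. Of 6 such genes, 3 were higher in E2f1 knockout and 2 in livers labelled E2f2 knockout, none lower, with median differences of 0.48 and 0.36. Among all tested genes 12.8% and 12.5% were higher. With median centring, quantile normalization, normexp correction or series matrix values 1 and 0 were higher. Gadd45gip1, a large subunit protein at the exit of the nascent chain that was first described in the nucleus, rose by 1.40 ± 0.31 in E2f1 knockout (limma adjusted p = 0.00925), more than any of the 77. Ptcd3 and Chchd1, both of the small subunit, rose by 0.56 (limma adjusted p = 0.0259) and 0.51 (limma adjusted p = 0.0416). In livers labelled E2f2 knockout Aurkaip1 rose by 0.52 and Mrpl58, which frees stalled ribosomes and is called Ict1 in the file, by 0.41 (limma adjusted p = 0.0375 for either). Dap3, a GTP-binding protein of the small subunit, differed by 0.33 and 0.14 without passing (limma adjusted p = 0.111 and 0.516).

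Many of the factors that work on the ribosome were called higher. Of 15 tested translation factors, 10 were higher in E2f1 knockout and 7 in livers labelled E2f2 knockout, none lower, with medians of 0.57 and 0.45. Among all tested genes 12.8% and 12.5% were higher. Taco1, an activator of Cox1 translation, rose by 1.02 and 0.87 (limma adjusted p = 0.00398 and 0.00738). Gfm1, the elongation factor that moves the ribosome along, rose by 0.92 and 0.81 (limma adjusted p = 0.00357 and 0.00621). Lrpprc, which keeps mitochondrial messages stable, rose by 0.55 and 0.77 (limma adjusted p = 0.0237 and 0.00548). Mrrf, the recycling factor, rose by 1.35 in E2f1 knockout (limma adjusted p = 0.038), but its probe was above background on only 1 of 4 wild type arrays and 3 of 4 in each of the other groups. With median centring, 5 and 3 of the 15 factors were higher, beside 7.43% and 6.78% of all tested genes.

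Genes that assemble the ribosome or modify its RNA showed a like picture. In E2f1 knockout 7 of 23 were higher and in livers labelled E2f2 knockout 9 of 23, with medians of 0.41 and 0.44. Among all tested genes 12.8% and 12.5% were higher. Noa1, a GTPase of small subunit assembly, rose by 0.89 and 0.72 (limma adjusted p = 0.00353 and 0.00825). Rpusd3, a pseudouridine synthase, rose by 0.74 and 1.00 (limma adjusted p = 0.00452 and 0.000772). Mtg1, a GTPase of large subunit assembly, rose by 0.83 and 0.60 (limma adjusted p = 0.00456 and 0.0179), and Tfb1m, which methylates the small subunit's RNA, by 0.73 and 0.71 (limma adjusted p = 0.00905 and 0.00969). Rpusd4, another pseudouridine synthase, was the only one that fell, by 0.69 in livers labelled E2f2 knockout (limma adjusted p = 0.016). With median centring 5 and 2 of the 23 were higher, beside 7.43% and 6.78% of all tested genes, so the 2 of 23 were near that share.

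Of the synthetases that charge mitochondrial transfer RNAs, 3 of 18 were higher in either comparison, near the 12.8% and 12.5% of all tested genes, with medians of 0.35 and 0.39. Gatb, of the enzyme that completes glutaminyl transfer RNA, rose by 1.00 in E2f1 knockout (limma adjusted p = 0.00931). Aars2 rose by 0.53 and 0.60 (limma adjusted p = 0.0336 and 0.0204), and Hars2 by 0.47 and 0.45 (limma adjusted p = 0.0234 and 0.0283). Lars2 rose by 0.64 in livers labelled E2f2 knockout (limma adjusted p = 0.0152). With median centring 1 and 0 of the 18 were higher, beside 7.43% and 6.78% of all tested genes.

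Among 11 genes that copy or transcribe mitochondrial DNA, 3 were higher in either comparison, with medians of 0.44 and 0.31. Among all tested genes 12.8% and 12.5% were higher. Tfb2m, a transcription initiation factor, rose by 0.54 and 0.64 (limma adjusted p = 0.0168 and 0.00799), and Elac2, which trims transfer RNA ends, by 0.64 and 0.77 (limma adjusted p = 0.029 and 0.0126). Polg2, of the DNA polymerase, rose by 0.80 in E2f1 knockout (limma adjusted p = 0.0134), and Polrmt, the RNA polymerase, by 0.56 in livers labelled E2f2 knockout (limma adjusted p = 0.0472). With median centring 1 and 0 of the 11 were higher, not clearly above the 7.43% and 6.78% of all tested genes.

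Of 10 regulators of mitochondrial genes, Ppargc1b and Ppara rose in both comparisons and no other was called. Among all tested genes 12.8% and 12.5% were higher. Ppargc1b, a coactivator of mitochondrial and fatty acid genes, rose by 2.17 and 1.16 (limma adjusted p = 0.00164 and 0.0245). Its probe was above background on 3 of 4 wild type arrays. Ppara, the receptor that activates fatty acid oxidation genes, rose by 1.25 and 0.88 (limma adjusted p = 0.00909 and 0.0396). Nrf1, which binds promoters of many respiratory genes, differed by -0.15 and 0.21 (limma adjusted p = 0.519 and 0.328), and Gabpa and Yy1 did not pass either. With median centring both E2f1 knockout calls held, and 1 of the 2 held in livers labelled E2f2 knockout. Of all tested genes 7.43% and 6.78% were then higher.

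Nuclear genes of oxidative phosphorylation, taken by name pattern, had 71 of 91 higher and 1 lower in E2f1 knockout. In livers labelled E2f2 knockout 56 were higher and 1 lower, and the medians were 0.67 and 0.55. Among all tested genes 12.8% and 12.5% were higher. The pattern also took 8 complex I assembly factors (Ndufaf genes), and without them 67 and 51 of 83 were higher. Over all 91 genes, differences ran from -1.04 to 3.41 in E2f1 knockout and from -0.76 to 0.90 in livers labelled E2f2 knockout. Sdhb and Sdha of complex II rose by 1.04 and 0.98 in E2f1 knockout (limma adjusted p = 0.00494 and 0.00194), below the largest difference in the list. In livers labelled E2f2 knockout Ndufa3 of complex I rose by 0.90 (limma adjusted p = 0.0211). The list's medians were above those of the mitochondrial ribosome genes in both comparisons, a difference that was not tested. Directly compared, 3 of the 91, Cox6b2, Cox7c and Ndufb8, were lower in livers labelled E2f2 knockout than in E2f1 knockout. With median centring 38 and 12 of the 91 were higher, and with quantile normalization 41 and 19. Of all tested genes 7.43% and 6.78% were higher with median centring, and 9.35% and 9.19% with quantile normalization.

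Cytosolic ribosomal proteins did not follow the mitochondrial ones. Of 78 tested, 0 were higher and 1 was lower in E2f1 knockout, and 1 was higher and 1 lower in livers labelled E2f2 knockout. The medians were -0.10 and -0.09. Among all tested genes 12.8% and 12.5% were higher, and 7.48% and 7.84% lower. Rps2 fell by 1.56 in E2f1 knockout (limma adjusted p = 0.00785), and Rpl36al rose by 0.50 while Rps9 fell by 0.51 in livers labelled E2f2 knockout (limma adjusted p = 0.0345 and 0.0349). On single arrays the list's median spread from -0.32 to 0.29 in wild type, a wider range than in either of the other groups. After quantile normalization 14 and 9 of the 78 were lower and none was higher, with medians of -0.39 and -0.33, so the sign was kept and the number of calls depended on scaling.

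**Figure D4:**
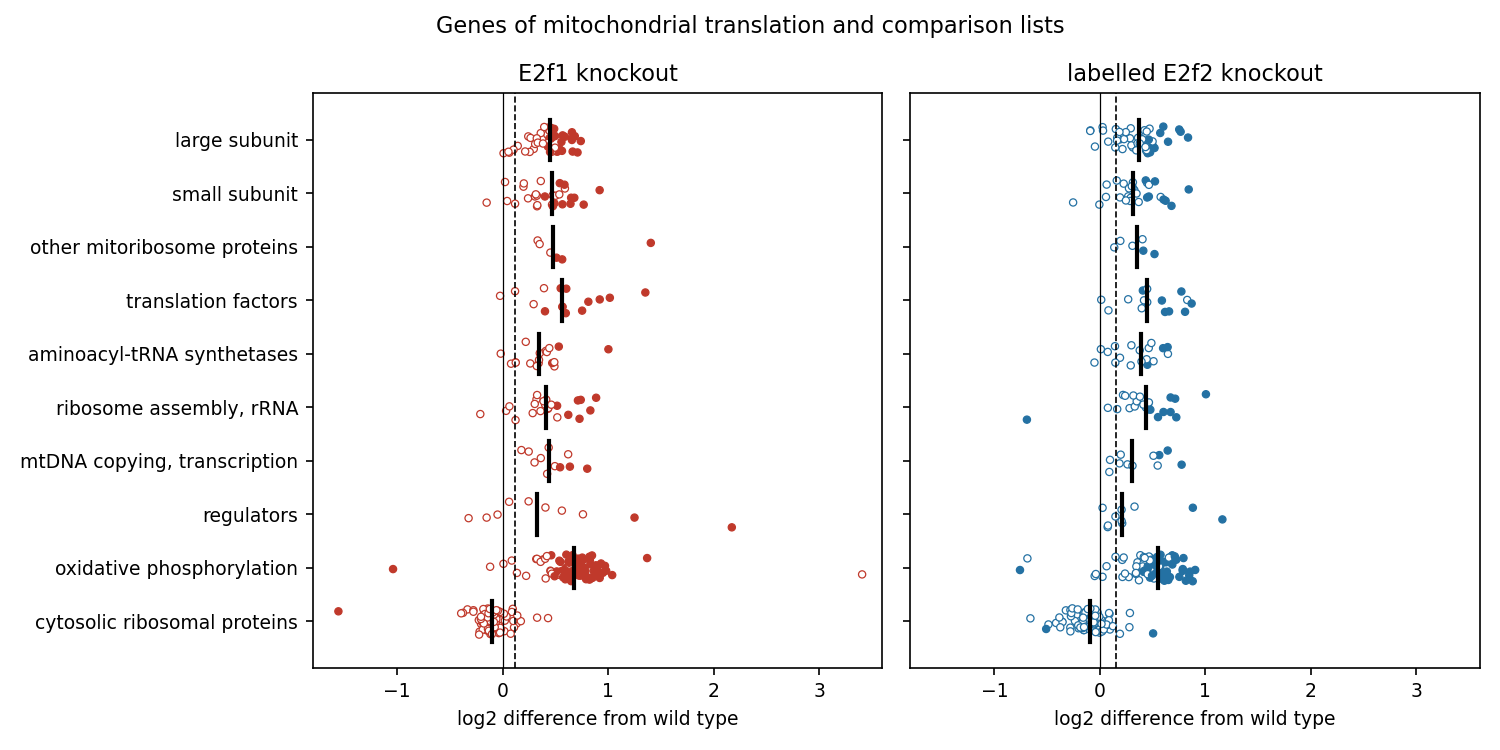
Log2 difference from wild type (x axis) of each tested gene of 10 lists (y axis), in E2f1 knockout (left) and in livers labelled E2f2 knockout (right). Filled points are genes called, thick bars list medians, and the dashed line the median of all tested genes, 0.12 left and 0.15 right; all lists but the cytosolic ribosomal proteins have their median above it.

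In bulk liver RNA a change in the share of a cell type and a change in RNA per cell cannot be told apart. Markers were therefore read beside these results. Of all tested genes 12.8% were higher and 7.48% lower in E2f1 knockout, and 12.5% and 7.84% in livers labelled E2f2 knockout. A call of 1 in 8 or 9 markers as higher is near these shares. Of 9 tested hepatocyte markers 2, Cps1 and Hnf4a, rose in E2f1 knockout and 1, Hnf4a, in livers labelled E2f2 knockout, with none lower and medians of 0.17 and 0.28. After quantile normalization 1 and 2 of them were lower and the medians were -0.08 and -0.01, so the list's direction depended on scaling. Their mean level per array ranged from 8.59 to 8.86 in wild type, 8.77 to 9.15 in E2f1 knockout and 8.70 to 9.01 in livers labelled E2f2 knockout. Endothelial markers had 1 and 2 of 6 lower, with mean levels of 2.35 to 2.42 in wild type, 1.46 to 1.93 in E2f1 knockout and 1.65 to 1.88 in livers labelled E2f2 knockout. Their median differences were -0.48 and -0.08, and 1 and 3 of the 6 differences were above 0. The lowest were -2.92 and -2.83, so single genes weigh heavily in these mean levels. Neutrophil markers had 2 of 5 lower in E2f1 knockout and 0 in livers labelled E2f2 knockout, with mean levels of 2.13 to 3.27, 0.54 to 2.76 and 0.25 to 2.75. Of the 5 differences 2 and 1 were above 0, and they ran from -2.83 to 0.22 and from -3.31 to 0.10. Adipocyte markers, of which 2 of 6 were tested, reached a mean level of 3.21 in E2f1 knockout replicate 1 against at most 0.13 in wild type. Of these 2 none was called in E2f1 knockout, and 1, Cidec, fell by 3.22 in livers labelled E2f2 knockout (limma adjusted p = 0.014), where the list's mean level was -4.10 to -1.81, below all wild type livers. Of the other lists, macrophage markers had 1 of 8 higher in E2f1 knockout, and 1 higher and 1 lower in livers labelled E2f2 knockout. T and NK cell markers had 0 and 1 of 4 lower, stellate markers 1 and 2 of 5, and cholangiocyte markers 1 of 3 in either, while B cell markers had 1 of 4 higher in E2f1 knockout. Without the replicate high in adipocyte markers 30 of the 77 genes were higher in E2f1 knockout. Calls over all genes, in either direction, then numbered 3867, beside 4173 in the main fit. The part of other cell types in the differences was not tested.

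Promoter sequences were compared because the members moved together. RefSeq windows (GRCm38.p6) from 250 bases before to 50 after the start site were at hand for 68 of the 77 genes. Motifs were searched on both strands. NRF1, a known activator of respiratory genes, was searched as GCGCNNGCGC, the ETS family including GABPA as CCGGAAG, YY1 as AAGATGGC, and E2F as TTTGGCGC or TTTCCCGC. The ETS motif was in 25 of 68 genes (36.8%), beside 9.9% of all genes in the table and 17.6% of the tested genes in it. The NRF1 motif was in 14 (20.6%), beside 7.0% and 12.9%. The YY1 motif was in 12 (17.6%), beside 3.2% and 4.7%. The E2F motifs were in 2 (2.9%), Mrps12 and Mrps23, beside 1.8% and 3.0%. In 25 of the 68 none of the motifs was found.

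Shown here are the bases just before the start site of 6 genes, Mrpl12, Mrpl44, Mrpl45 and Mrpl34 as a few examples of called genes with a match before the start, and Mrps12 and Mrps23 as the genes with an E2F motif. Each runs 5′ to 3′ on the gene's strand, ends at the base before the start, and has the match in capitals. That of Mrps12 stops short of the divergent start of Sars2.
Mrpl12, chr11:120484487-120484636, plus strand, NRF1 match at -81 to -72: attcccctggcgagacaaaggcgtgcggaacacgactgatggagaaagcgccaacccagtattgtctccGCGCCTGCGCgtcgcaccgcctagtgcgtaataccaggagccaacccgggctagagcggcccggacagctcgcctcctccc
Mrpl44, chr1:79775868-79776017, plus strand, NRF1 match at -35 to -26: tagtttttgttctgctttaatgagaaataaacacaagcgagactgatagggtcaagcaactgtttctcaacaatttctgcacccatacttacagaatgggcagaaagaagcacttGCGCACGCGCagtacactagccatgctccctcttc
Mrpl45, chr11:97315566-97315715, plus strand, NRF1 matches at -120 to -111 and -38 to -29: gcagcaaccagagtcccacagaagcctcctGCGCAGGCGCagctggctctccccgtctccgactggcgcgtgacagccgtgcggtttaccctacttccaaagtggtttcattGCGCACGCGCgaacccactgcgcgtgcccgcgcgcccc
Mrpl34, chr8:71464776-71464925, plus strand, ETS match at -37 to -31: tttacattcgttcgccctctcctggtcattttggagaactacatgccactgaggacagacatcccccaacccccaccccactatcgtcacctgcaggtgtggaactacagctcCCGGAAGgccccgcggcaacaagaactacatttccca
Mrps12, chr7:28741822-28741967, minus strand, E2F match at -135 to -128: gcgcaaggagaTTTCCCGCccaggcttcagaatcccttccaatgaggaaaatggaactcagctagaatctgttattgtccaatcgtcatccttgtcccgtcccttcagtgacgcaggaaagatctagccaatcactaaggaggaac
Mrps23, chr11:88204138-88204387, plus strand, E2F match at -202 to -195: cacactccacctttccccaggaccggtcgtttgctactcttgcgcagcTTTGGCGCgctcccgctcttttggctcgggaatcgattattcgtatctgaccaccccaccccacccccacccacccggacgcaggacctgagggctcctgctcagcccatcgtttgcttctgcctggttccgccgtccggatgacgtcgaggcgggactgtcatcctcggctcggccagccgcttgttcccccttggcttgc

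For NRF1, ETS and YY1, median differences with and without the motif lay within 0.05 of each other in both comparisons. With the NRF1 motif the median difference in E2f1 knockout was 0.46 with 9 of 14 called, without it 0.45 with 22 of 54 called. With the ETS motif it was 0.45 with 9 of 25 called, without it 0.46 with 22 of 43. With the YY1 motif it was 0.50 with 6 of 12 called, and without it 0.45 with 25 of 56. The 2 genes with an E2F motif had a median of 0.09, against 0.46 without it. In livers labelled E2f2 knockout the medians with and without the NRF1 motif were 0.36 and 0.32, with 2 of 14 and 14 of 54 called. With and without the ETS motif they were 0.34 and 0.33 (5 of 25 and 11 of 43 called), with and without the YY1 motif 0.30 and 0.35 (2 of 12 and 14 of 56 called), and with and without an E2F motif 0.39 and 0.34 (0 of 2 and 16 of 66 called). Of the printed genes, Mrpl45, which anchors the ribosome to the inner membrane, rose by 0.47 ± 0.12 in E2f1 knockout (limma adjusted p = 0.019), from a mean of 3.08 ± 0.08 (SD, n = 4) in wild type to 3.55 ± 0.06, a call lost with median centring and quantile normalization. Mrpl34, related to bacterial L34, rose by 0.56 ± 0.17 (limma adjusted p = 0.0366), a call held under 13 of 25 settings. The call was lost without wild type replicate 2 or 4 and without E2f1 knockout replicate 2, 3 or 4. It was lost also without replicate 2 of the labelled E2f2 knockout, and under further settings not listed here. Neither of the genes with an E2F motif was called in either comparison: Mrps23 differed by 0.33 (limma adjusted p = 0.177) and 0.46 (limma adjusted p = 0.0598), beside the Mrps12 values given above. These matches are letters in a window, and no binding was measured.

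Start sites of the members often faced another gene. Of the 68 genes with a window, 26 (38.2%) had a start on the opposite strand within 1000 bases upstream, beside 12.3% of all genes in the table and 17.5% of the tested ones. Mrpl46 and Mrps11, 1 from each subunit, start 42 bases apart, and their differences were 0.67 (limma adjusted p = 0.0249) and 0.59 (limma adjusted p = 0.0597) in E2f1 knockout and 0.44 and 0.23 in livers labelled E2f2 knockout, neither of which passed (limma adjusted p = 0.108 and 0.462). The Mrpl46 call was lost without wild type replicate 2 or 3 and without E2f1 knockout replicate 3 or 4. Mrpl47 faces Ndufb5 of complex I at 308 bases, and both rose in E2f1 knockout, by 0.66 (limma adjusted p = 0.0125) and 0.76 (limma adjusted p = 0.00744). With median centring only 1 large subunit gene was called in E2f1 knockout, so at most 1 of Mrpl46 and Mrpl47 kept its call. Mrps12 faces Sars2, the mitochondrial seryl-tRNA synthetase, at 147 bases, and neither was called. Beside 12.8% and 12.5% of all tested genes higher in the comparisons with wild type, of 24 facing genes that were tested, Mrpl46 and Mrps11 among them, 5 were higher and none lower in E2f1 knockout, with a median of 0.30, and 4 were higher and 1 lower in livers labelled E2f2 knockout, with a median of 0.18.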

How the data were processed

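The scanner files hold intensity values that Agilent Feature Extraction 10.7.3.1 had corrected for background before the authors deposited them (column per the file headers, version per the submitters' processing notes), and give probe positions in mm9. RNA input was 50 ng per liver, per the labels' protocols. The authors' deposited series matrix, on a log2 scale as its values show, served as an alternative. It correlates with the scanner values at r of 0.9981 or more, and no source used here states how it was scaled.

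Spots that were controls or outliers were dropped, and the rest averaged per probe. The main value was log2 signal minus the array's 75th percentile. Probes entered the test where 3 or more of the 4 arrays in any group had them well above background, and the brightest tested probe stood for a gene. RefSeq tables named 28026 probes by accession, 3418 by symbol and 295 by synonym, and 23942 kept the file's name. Genes were fitted with limma 3.58.1 in R 4.3.3 on all 12 arrays without covariates (9 residual degrees of freedom, prior 3.15), and a Benjamini-Hochberg adjusted p under 0.05 was called. The number of arrays limits precision. Of 12 pairs of arrays with the same number, which share a slide per the file headers, 10 had deviations correlating above 0.1 (r from 0.04 to 0.42 across genes). The script was tested on simulated data.

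Members, lists and the naming rule were chosen with earlier results of these data known. The rule named the 6 largest called rises per comparison, the 2 brightest and 2 dimmest members, members whose probes differ in sign, members of special role, and up to 3 called genes per list. Mrpl16, Mrpl34, Mrpl45, Mrpl46, Mrpl47, Mrps11, Mrps14, Mrps18c and other genes outside it were named after their values were seen. Alternatives were median centring, quantile normalization, normexp correction (offset 50), series matrix values, other probe filters and summaries, the slide as a block, array weights, an intensity trend, a fit of 2 groups, each array left out, and, chosen after seeing the data, the percentile taken over spots. The NRF1 motif was first searched with a spacer of 3 bases and corrected to 2 bases afterwards. The first search found it in 2 of 68 members (2.9%), beside 2.6% of all genes with a window and 4.3% of the tested ones. No probes with mitochondrially encoded (mt-) names were found, and the transcript part each probe lies in was not analysed here.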

Additional observations from a re-analysis of the deposited data

Results flagged for a closer look

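Of 108 groups of 4 livers examined among 34 named genes and the 2 subunit medians, 4 held a liver set apart from the other 3 by Dixon's criterion, where chance flags about 1 in 20 groups. Mrpl33 measured 5.62 in wild type replicate 4, below 5.93 to 5.97 in the others. Mrpl15 measured 2.82 in replicate 2 of the labelled E2f2 knockout, below 3.11 to 3.16. Mrps2 measured 2.27 in E2f1 knockout replicate 3, above 1.65 to 1.75. Mrps33 measured 4.67 in wild type replicate 1, above 4.48 to 4.50.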

How the results depend on the processing

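Each of the 34 and 20 calls kept its sign under all 25 alternatives, but only 2 and 3 kept their call under all of them. Members called in E2f1 knockout numbered 34 in the main setting, 3 with median centring, 15 with quantile normalization, 15 with series matrix values, 22 with normexp correction, 11 without a filter on dim probes, 14 with only the 2 groups compared, 50 with the slide as replicate block, and 13 to 35 with each array left out. In livers labelled E2f2 knockout they numbered 20, then 3, 8, 8, 7, 6, 12 and 34 in the same order, 32 with array weights, and 6 to 26 with each array left out. Of all tested genes 10.4% and 9.55% were higher with normexp correction, beside 28.6% and 9.09% of the members. With the slide as block the shares were 17.6% and 19.5%, beside 64.9% and 44.2% of the members. Calls over all genes, in either direction, numbered 2516 to 4854 and 2561 to 5136 with each array left out. In the main fit they numbered 4173 and 4181. Between E2f1 knockout and labelled E2f2 knockout livers the count of members called stayed 0. Large and small subunit medians in E2f1 knockout were 0.448 and 0.468, and 0.255 and 0.242 with quantile normalization and 0.255 and 0.243 with series matrix values. The large subunit median in livers labelled E2f2 knockout was 0.369, and 0.201 and 0.199 with those settings. Between those groups, leaving out each array gave -0.107 to 0.014 for the large and -0.143 to -0.011 for the small subunit. For single named genes, 2360 values kept their side of the threshold, 36 passed it only under the alternative and 154 only in the main setting. The cause of these shifts was not tested. The Mrrf probe was above background on 1 of 4 wild type arrays, which limits its value.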

Other observations

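Across the 77 genes, the difference between livers labelled E2f2 knockout and E2f1 knockout went with the gene's mean signal (Spearman's rho 0.54, and 0.59 after quantile normalization). For the differences from wild type the same relation depended on scaling, with rho of 0.00 and -0.34 in E2f1 knockout and 0.41 and 0.03 in livers labelled E2f2 knockout. Genes are not independent replicates here, the points share the same arrays and probes, and no test was made. By the positions of their probes, 10 members lie on chromosome 11, 8 on chromosome 17 and 7 on chromosome 6.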
